A study of Ovis aries and Mus musculus with 20 samples.

Results

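The mouse *Fto* and *Irx* locus lies on chromosome 8 and holds 5 genes that are described here, *Rpgrip1l*, *Fto*, *Irx3*, *Irx5* and *Irx6*, out of 20604 protein-coding genes on the autosomes. The genes were chosen by name, with no measured value in the rule. The region around them runs from 1 Mb before *Rpgrip1l* to 1 Mb after *Irx6* (chr8:90943658-94407584, genome build GRCm39) and takes 174 of the 123133 autosomal bins of 20 kb in the deposited table. The values come from 2 of the 20 samples of the series, which are in situ Hi-C libraries of inguinal white adipose tissue (iWAT, a subcutaneous fat depot). Each library was made from a pool of 10 female Kunming mice, an outbred strain, at 32 weeks of age, fasted before collection, and the labels name no treatment. The other samples are visceral fat depots of sheep and are not used here. Nuclei came from the adipocyte-bearing layer of cross-linked tissue, so every value averages over the cells of that layer. Each gene or bin therefore has a value in pool 1 and a value in pool 2, with no second condition, and differences are described against the spread between the pools without a test.

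Hi-C counts contacts between pieces of chromatin that lie near each other in the nucleus. Chromosomes separate into an A compartment, which is open and rich in active genes, and a B compartment, which is more closed. The fibre is also divided into topologically associating domains (TADs), which can span both compartments. TADs are stretches that contact themselves more than their neighbours and whose ends are often bound by the insulator protein CTCF. The A-B index of a bin is positive where its contacts lean to A and negative where they lean to B. *Fto* encodes a dioxygenase that removes methyl groups from N6-methyladenosine in RNA. *Rpgrip1l*, which starts next to it and runs the other way, encodes a protein of the transition zone at the base of the primary cilium. *Irx3*, *Irx5* and *Irx6* form a cluster of Iroquois genes, which encode homeodomain transcription factors of the TALE class that pattern many tissues of the embryo. Common variants within introns of human *FTO* are associated with obesity, and DNA of those introns has been shown in mouse and human to contact the *Irx3* promoter at a distance.

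The sequences that bear on the TAD and on the gene starts are given first. Within the TAD that holds *Fto* and at its left boundary, the 12-letter core of the CTCF consensus, searched on both strands, had 4 matches, which are shown as 30-base stretches of GRCm39 in their own 5′ to 3′ direction with the matching letters in capitals. The first, at chr8:91874560-91874589 on the minus strand within *Aktip*, lies in the boundary bin itself. The second is at chr8:92202661-92202690 on the plus strand within *Fto*, the third at chr8:92842679-92842708 on the plus strand and the fourth at chr8:92969861-92969890 on the plus strand, and the last pair falls between *Irx3* and *Irx5*.
CTCF match in the left boundary bin: tcaagataaCCACCAGAGGGCactcgacta
CTCF match within Fto: ataaacaggCCAGCAGATGGCaagaagcag
first CTCF match between Irx3 and Irx5: gcgagctctCCAGCAGAGGGCactggtccc
second CTCF match between Irx3 and Irx5: aaggaaggtCCAGTAGATGGCtcagctggt
The boundary bins at the right end of this TAD and at the far end of the next one held no match. A match is a string of letters and not a bound site. In the region 18 of 174 bins held a match (10.3%), against 16.2% of 2902 TAD boundary bins and 9.05% of 116966 other bins over all autosomes.

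The 250 bases before the annotated start (GENCODE M39) of the 3 Iroquois genes are shown with each CG dinucleotide in capitals, because the genes differed in this measure. They lie at chr8:92528696-92528945 on the minus strand for *Irx3*, chr8:93084003-93084252 on the plus strand for *Irx5* and chr8:93400666-93400915 on the plus strand for *Irx6*.
Irx3 upstream: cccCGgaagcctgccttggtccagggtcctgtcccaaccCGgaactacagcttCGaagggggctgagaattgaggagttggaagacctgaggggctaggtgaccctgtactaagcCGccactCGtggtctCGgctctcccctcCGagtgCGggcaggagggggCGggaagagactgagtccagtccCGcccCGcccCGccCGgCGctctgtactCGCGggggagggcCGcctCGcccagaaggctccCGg
Irx5 upstream: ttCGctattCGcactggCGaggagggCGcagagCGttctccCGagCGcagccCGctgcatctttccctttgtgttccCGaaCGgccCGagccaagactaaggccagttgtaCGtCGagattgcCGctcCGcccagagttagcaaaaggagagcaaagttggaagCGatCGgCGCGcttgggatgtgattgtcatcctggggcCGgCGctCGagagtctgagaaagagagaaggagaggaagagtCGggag
Irx6 upstream: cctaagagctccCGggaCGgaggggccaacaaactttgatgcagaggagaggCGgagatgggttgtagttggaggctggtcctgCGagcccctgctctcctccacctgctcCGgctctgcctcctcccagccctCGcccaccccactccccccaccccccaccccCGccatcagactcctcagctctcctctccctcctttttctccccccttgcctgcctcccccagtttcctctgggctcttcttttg
The stretch before *Irx5* held 23 CG dinucleotides, the one before *Irx3* 19 and the one before *Irx6* only 7, although its G and C content, 64.8%, was above the 59.6% of *Irx5*. *Rpgrip1l* had 19 and *Fto* 15, but 187 of the 250 bases before *Rpgrip1l* and 122 of those before *Fto* lie over untranslated exons of the partner gene. Among the 1026 protein-coding genes of chromosome 8 the median was 8, and 10.5% of them had at least 23, 17.7% at least 19, 27.9% at least 15 and 56.4% at least 7. No stretch of the 5 genes held the letters TATAAA on either strand.

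All 5 genes had a positive A-B index in both pools, against 75.1% of protein-coding genes on all autosomes and 82.3% on chromosome 8, so their place in the A compartment did not set them apart. *Rpgrip1l* (ENSMUSG00000033282.16, chr8:91943658-92040016, minus strand) had an index of 3.86 in pool 1 and 3.40 in pool 2 over its 6 bins. *Fto* (ENSMUSG00000055932.17, chr8:92039953-92395070, plus strand) had 3.64 and 3.29 over its 19 bins. These neighbours overlap by 64 bases at their starts and share 2 bins, so their values are not independent. *Irx3* (ENSMUSG00000031734.14, chr8:92525153-92528695, minus strand) had 2.66 and 2.90 in the single bin it occupies. *Irx5* (ENSMUSG00000031737.12, chr8:93084253-93102914, plus strand) had 2.70 and 3.07 over 2 bins. *Irx6* (ENSMUSG00000031738.15, chr8:93400916-93407584, plus strand) stood below the others, at 0.493 and 0.632 in its bin.

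As means of the pools the order was *Rpgrip1l* at 3.63 ± 0.32, *Fto* at 3.46 ± 0.25, *Irx5* at 2.89 ± 0.26, *Irx3* at 2.78 ± 0.17 and *Irx6* at 0.563 ± 0.0986 (SD, n = 2 pools). Within each pool, *Rpgrip1l* was above *Fto* by 0.22 in pool 1 and 0.12 in pool 2, and *Irx5* was above *Irx3* by 0.04 and 0.17, so both orders held in both pools but by less than the SD of either gene between the pools. *Fto* was above *Irx5* by 0.94 and 0.22, or 0.58 ± 0.51, and the gap in pool 2 was below the SD of either gene. *Irx3* was above *Irx6* by 2.17 and 2.27. The lower value of *Fto*, 3.29, was above the higher value of *Irx5*, 3.07, and the value of *Irx6* was below that of every other member in each pool. The pools differed in opposite directions along the locus. *Rpgrip1l* and *Fto* were higher in pool 1, by 0.45 and 0.35, whereas *Irx3*, *Irx5* and *Irx6* were lower in pool 1, by 0.24, 0.37 and 0.14. Over all protein-coding genes pool 1 was higher by a mean of 0.36, and over those of chromosome 8 by 0.39. *Rpgrip1l* and *Fto* were thus near this mean offset, and the *Irx* genes had the opposite sign. The mean absolute difference over all protein-coding genes was 0.535. Each of the 5 genes differed by less than that, so none of them stood out. The mean over the 5 genes was 2.67 in pool 1 and 2.66 in pool 2, against a mean of 2.21 and a median of 3.13 over all genes and a mean of 2.97 and a median of 4.20 over the genes of chromosome 8. *Rpgrip1l* lay above 57.2% of all genes and 41.5% of those of chromosome 8, and *Irx6* above 27.4% and 19.1%.

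**Figure D1:**
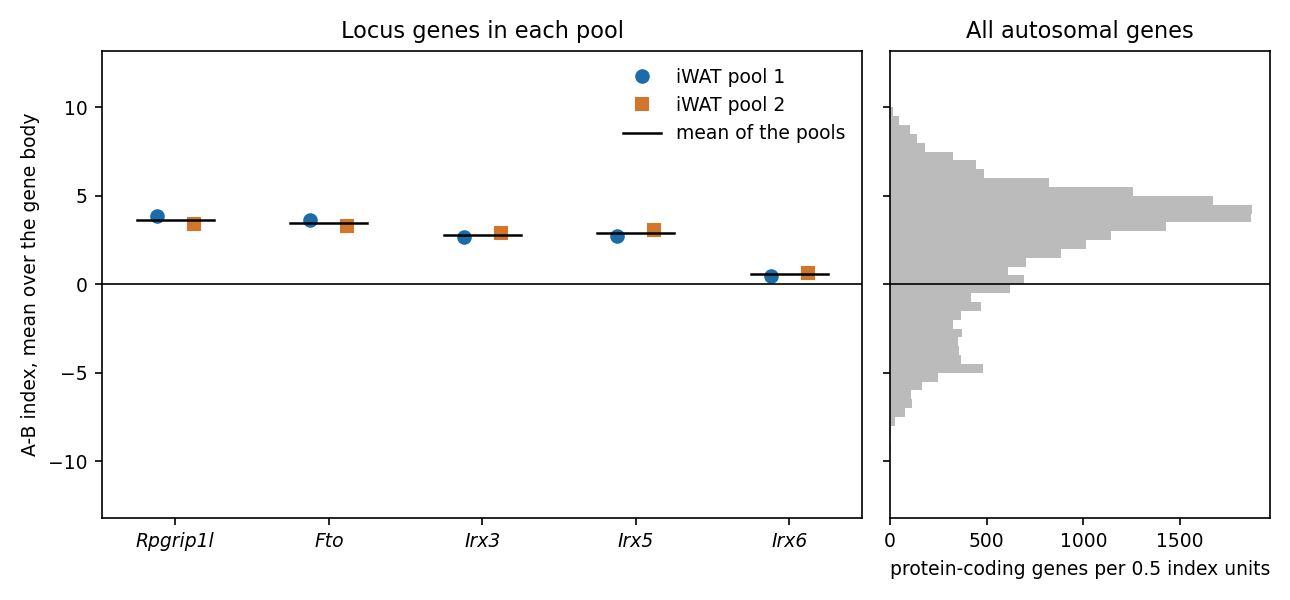
A-B index of the 5 genes in pool 1 and pool 2 with their mean, and the distribution of the index over all autosomal protein-coding genes. *Rpgrip1l* (3.63) and *Fto* (3.46) lie highest, *Irx5* (2.89) and *Irx3* (2.78) next and *Irx6* (0.563) lowest, and all 5 are above 0.

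From *Rpgrip1l* to *Irx6*, the index was highest at the shared start of *Rpgrip1l* and *Fto* and lower toward the *Irx* genes. The bin chr8:92020001-92040000 had 4.49 in pool 1 and 3.94 in pool 2, and the next, chr8:92040001-92060000, had 4.69 and 4.53. Within *Fto*, the first 9 bins averaged 3.97 and 3.48 and the last 9 bins averaged 3.36 and 3.09, so both pools had the higher value in the promoter-side part of the gene. The long first intron of *Fto* (chr8:92040249-92128434, 88.2 kb) had an index of 4.26 and 3.73, and the long last intron (chr8:92249525-92392909, 143 kb) had 3.32 and 3.11. *Fto* did not cross into B at any bin, its lowest values being 2.73 and 2.61.

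Beyond *Fto* the index stayed positive up to *Irx5*. The 130 kb between *Fto* and *Irx3* averaged 2.23 in pool 1 and 2.57 in pool 2 over 6 bins. The 556 kb between *Irx3* and *Irx5* hold no protein-coding gene and averaged 1.88 and 2.11, with all 27 bins in A in both pools. The 298 kb between *Irx5* and *Irx6* averaged 0.426 and 0.464, with 9 of 14 bins in A in both pools, 1 in B and 4 with opposite signs. Opposite signs were found in 3.62% of autosomal bins. The mean absolute difference between the pools over these 14 bins was 0.435, against 0.534 over all autosomal bins, so the pools did not differ more here in size. Of the 74 bins from *Rpgrip1l* to *Irx6*, 69 were in A in both pools (93.2%), against 43.9% of the bins of chromosome 8 and 44.4% of all autosomal bins.

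**Figure D2:**
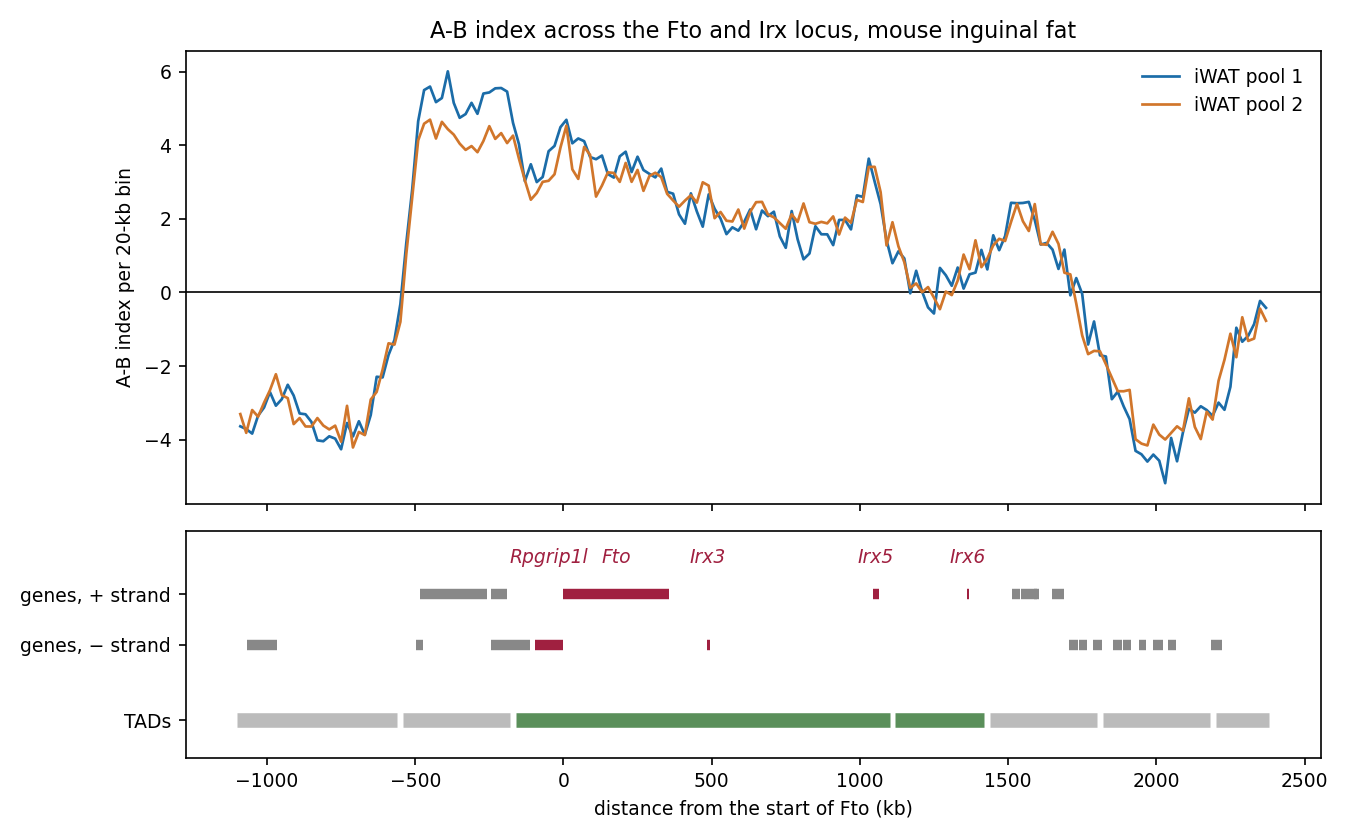
A-B index per 20-kb bin in pool 1 and pool 2 against distance from the *Fto* start in kb, with the genes and the TADs of the merged map drawn to scale. The index is above 0 from *Chd9* to beyond *Irx5*, close to 0 between *Irx5* and *Irx6*, and below 0 at both ends, toward *Tox3* and the carboxylesterase genes.

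The stretch in A that holds the first 4 genes ran without a break over chr8:91500001-93200000, which is 1.7 Mb. It was longer than 92.1% of the 2165 such stretches on the autosomes, whose median was 0.08 Mb, but those shorter stretches held only 41.8% of the bins in A. To its left lay a B stretch of 1.94 Mb (chr8:89560001-91500000) that holds *Tox3*, an HMG-box gene with an index of -3.30 in pool 1 and -3.04 in pool 2. The sign turned within 1 bin, since the last bin in B had -0.31 and -0.80 and the first in A had 1.35 and 1.05. *Irx6* fell in a separate A stretch of 0.38 Mb (chr8:93360001-93740000), which was followed, after 2 bins of opposite signs, by B at chr8:93780001-94520000. Over the whole region of 174 bins the index averaged 0.656 and 0.595, against a mean of -0.497 over chromosome 8 and -0.457 over the autosomes, and 107 bins (61.5%) were in A in both pools and 61 in B.

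Neighbouring genes framed the members on both sides. On the left, *Gm19935* had 5.08 in pool 1 and 4.36 in pool 2, and *Chd9*, which encodes a chromodomain helicase, had 5.22 in pool 1 and 4.25 in pool 2, *Rbl2*, which encodes a retinoblastoma-family pocket protein, had 5.50 and 4.27, and *Aktip* had 4.64 and 3.82. All were above *Rpgrip1l* in their own pool. *Gm19935* overlaps *Chd9* and *Aktip* overlaps *Rbl2*, so the values within each pair share bins and are not independent. On the right, *Mmp2*, which encodes a gelatinase, had 2.43 and 2.09, *Lpcat2*, an acyltransferase of phospholipid remodelling, had 2.04 and 1.83, *Capns2*, which lies within *Lpcat2* and encodes a calpain subunit, had 1.97 and 2.40, and *Slc6a2*, the noradrenaline transporter, had 0.989 and 1.17. These were above *Irx6* and below *Rpgrip1l* and *Fto* in both pools.

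The TAD call of the merged map placed the 5 genes in 2 TADs. *Rpgrip1l*, *Fto*, *Irx3* and *Irx5* lay whole within the TAD at chr8:91880001-93140000, which is 1260 kb long. It was longer than 88.0% of the 2979 mouse TADs, whose median length was 540 kb, and it held 3.17 genes per Mb, against a median of 6 over TADs. All 63 of its bins were in A in both pools, a state found in 40.6% of TADs, and its mean index was 2.66 in pool 1 and 2.64 in pool 2. *Irx6* lay alone in the next TAD, at chr8:93160001-93460000, which is 300 kb long and longer than only 9.26% of TADs, with a mean index of 0.396 and 0.403. Of its 15 bins, 10 were in A in both pools, 1 was in B and 4 had opposite signs. That a gene lies inside a single TAD is common, with 86.5% of protein-coding genes doing so. The TADs were called once on the merged libraries, so their ends have no replicate.

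The starts of *Rpgrip1l* and *Fto* lay 160.0 kb from the nearest TAD end and that of *Irx3* 611 kb. The start of *Irx5* lay 55.7 kb from the right end of the same TAD, beside the boundary bin at chr8:93140001-93160000. The start of *Irx6* lay 59.1 kb from the far end of its own TAD, beside the boundary bin at chr8:93460001-93480000. The A-B index and the TADs do not give the contact frequency of a particular pair of sites such as *Fto* and *Irx3*.

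The start bin of 4 of the 5 genes was above the mean of the bins 2 to 5 away on each side in both pools, as was that of 49.6% of all protein-coding genes. The start bins of *Rpgrip1l* and *Fto* are adjacent and share most of their surrounding bins, so these genes do not count as independent cases. The excess was 1.36 in pool 1 and 1.64 in pool 2 at *Irx5*, 1.00 and 1.37 at *Rpgrip1l*, 0.81 and 0.76 at *Fto* and 0.67 and 0.62 at *Irx3*. *Irx6* had -0.32 and 0.11, so its pools had opposite signs. At *Irx5* the bin before the start bin, which lies in *Crnde*, a noncoding RNA gene transcribed the other way, was above the start bin in pool 1, at 3.64 against 3.01, whereas in pool 2 both bins had 3.41. This measure was chosen after the values had been seen.

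**Figure D3:**
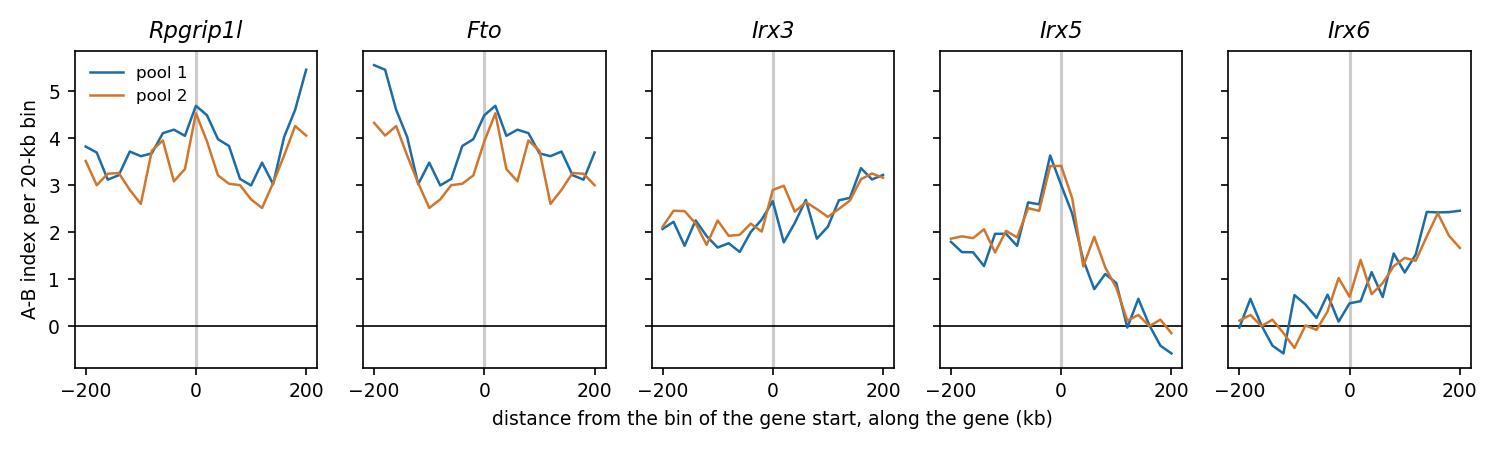
A-B index of the bins around the start of each gene, read in the direction of transcription, in pool 1 and pool 2, with distance from the start bin in kb. The start bin is above its surroundings in both pools for *Rpgrip1l*, *Fto*, *Irx3* and *Irx5* and not for *Irx6*, whose start bin has 0.493 and 0.632. *Rpgrip1l* and *Fto* have adjacent start bins and share most of the bins shown.

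The second Iroquois cluster of the mouse, *Irx1*, *Irx2* and *Irx4* on chromosome 13, is the most like region of the genome and had the opposite sign. The chromosome 8 genes *Irx3*, *Irx5* and *Irx6* averaged 1.95 in pool 1 and 2.20 in pool 2, against -1.17 and -0.41 for *Irx1*, *Irx2* and *Irx4*. The difference was 3.12 in pool 1 and 2.61 in pool 2, or 2.87 ± 0.37 (SD, n = 2 pools), which is larger than the spread between the pools. The index is computed within each chromosome, so its zero and scale were set separately for chromosomes 8 and 13. *Irx1* had -1.74 and -0.386, *Irx2* had -1.16 and -0.530 and *Irx4* had -0.616 and -0.302. All 3 were thus in B in both pools, as were 22.5% of all protein-coding genes and 27.8% of those of chromosome 13. The lowest member on chromosome 8, *Irx6*, was above the highest on chromosome 13 in each pool.

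From the first to the last gene, 40 of 45 bins on chromosome 8 (88.9%) were in A in both pools, whereas all 66 bins on chromosome 13 were in B, a state of 52.0% of autosomal bins and 49.8% of those of chromosome 13, and G and C content was 45.9% on chromosome 8 and 44.1% on chromosome 13. The TAD around *Irx1*, *Irx2* and *Irx4* (chr13:71200001-73420000, 2220 kb) had all of its 111 bins in B, as did 15.2% of TADs, and *Irx4* started 12.3 kb from its end. The next TAD (chr13:73440001-74480000) had all 52 bins in A, with 2.02 and 1.97. On both chromosomes the last gene of the cluster, *Irx6* or *Irx4*, had the value nearest to 0 of its cluster.

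**Figure D4:**
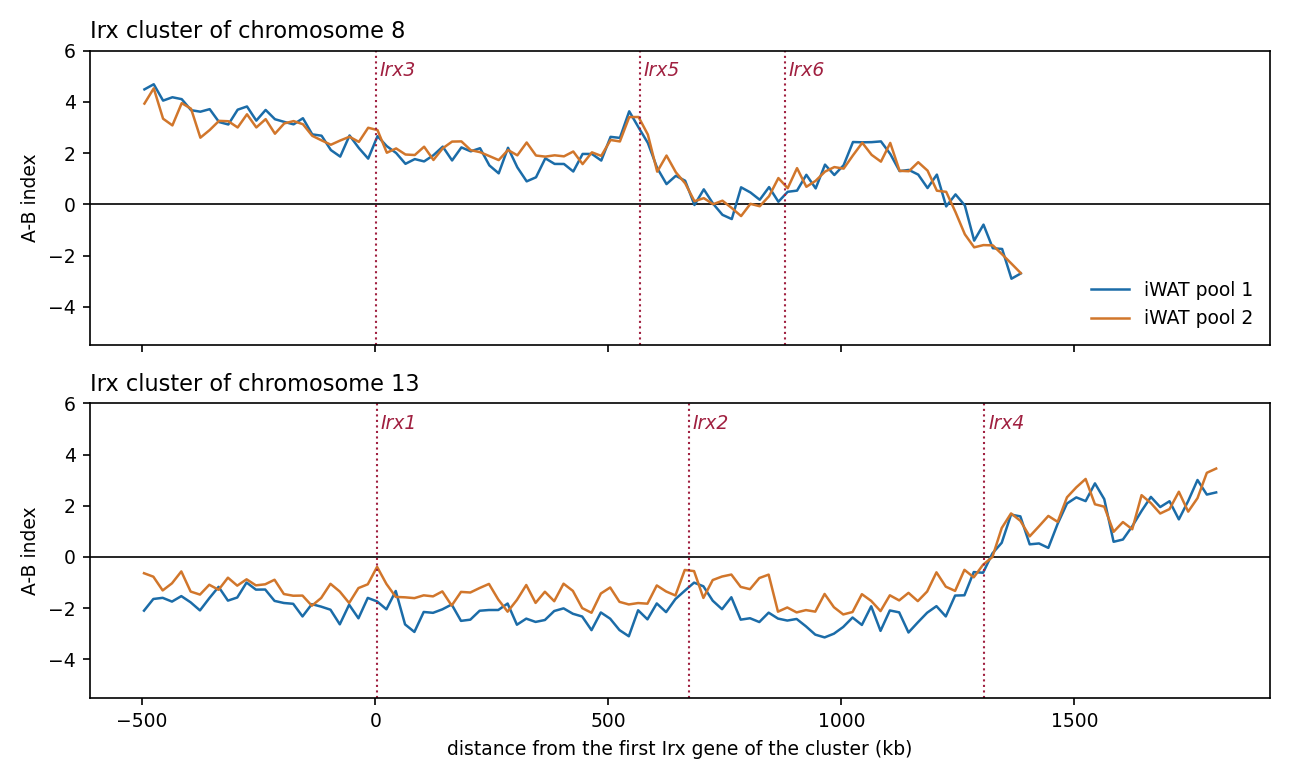
A-B index per 20-kb bin in pool 1 and pool 2 along the *Irx3*, *Irx5* and *Irx6* cluster of chromosome 8 and the *Irx1*, *Irx2* and *Irx4* cluster of chromosome 13, with distance in kb. The chromosome 8 cluster is above 0 except between *Irx5* and *Irx6*, and the chromosome 13 cluster is below 0 from *Irx1* to *Irx4*, with the mean of the genes at 2.08 on chromosome 8 and -0.79 on chromosome 13.

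G and C content is known to go with compartment along chromosomes. Over the 174 bins of the locus it correlated with the index at r = 0.33 (rho = 0.34), and over the 74 bins from *Rpgrip1l* to *Irx6* at r = -0.20 (rho = -0.16), against r = 0.75 (rho = 0.77) over the 6285 bins of chromosome 8. Neighbouring bins are not independent, and these are descriptions. Among the members the order by G and C content was not that of the index, since *Rpgrip1l* had the highest index with the lowest content, 40.7%, and *Irx3* had the highest content, 52.3%.

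**Figure D5:**
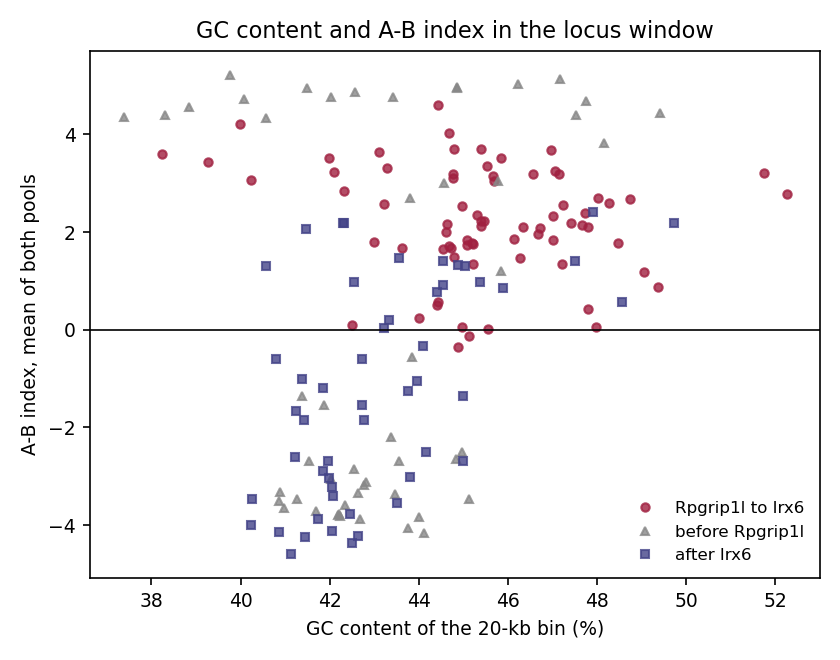
A-B index (mean of both pools) against G and C content in percent for the 174 bins of the locus, with bins from *Rpgrip1l* to *Irx6*, before *Rpgrip1l* and after *Irx6* marked apart. Of the 74 bins from *Rpgrip1l* to *Irx6*, 69 were in A in both pools over the whole range of content, while the flanking bins lie on both sides of 0.

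Genes elsewhere in the genome that share a pathway, a family or a cell structure with *Fto* or *Rpgrip1l* were described in the same way. Of 17 genes of the N6-methyladenosine pathway, in which *Fto* is an eraser, 16 were in A in both pools, against 75.1% of all protein-coding genes, with a median index of 3.81 over the list and the highest value, 6.94, at the reader *Ythdf1*. The other member, the reader *Ythdc2*, had 0.0702 in pool 1 and -0.262 in pool 2. Of the 8 other AlkB dioxygenases, the family of *Fto*, 7 were in A with a median of 5.01 and the highest value, 7.17, at *Alkbh6*, and *Alkbh8*, which modifies transfer RNA, was in B at -1.87. Of 18 other genes of the ciliary transition zone, where Rpgrip1l acts, 17 were in A with a median of 2.65 and the highest value, 8.17, at *B9d2*, and *Tmem17* was in B at -0.57. The same share of 75.1% and the median of 3.13 over all genes apply to these lists, in which nothing was tested. *Alkbh5* counts in both the N6-methyladenosine and the AlkB list. *Fto* lay below the median of its list of dioxygenases and *Rpgrip1l* above that of the transition zone genes.

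The labelled tissue was checked with marker genes, within the limits of the index, which reports the state of chromatin and not expression. All 9 adipocyte markers were in A in both pools, against 75.1% of all protein-coding genes, and ran from 2.64 at *Lpl* to 7.84 at *Lipe* with a median of 3.75, against 3.13 over all genes. Of 23 markers of 7 other cell types, 15 were in A and 2 had opposite signs. The 6 in B, against 22.5% of all genes, were *Adgre1* and *Mrc1* of macrophages, *Dpp4* of adipocyte progenitors, *Myh4* of skeletal muscle and *Syt1* and *Snap25* of neurons. Markers of T cells and endothelial cells were all in A as well, so a place in A does not identify the cells of the tissue. The pools differed at the locus by a mean absolute difference of 0.463 per bin, against 0.534 over all autosomal bins. Pool 1 had the wider range of values over the genome, with a standard deviation of 3.82 against 3.46 for pool 2. The largest difference between *Rpgrip1l* and *Irx6* was in the bin chr8:92840001-92860000, between *Irx3* and *Irx5*, with 0.900 in pool 1 and 2.42 in pool 2, and was picked as the largest of 74.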

How the data were processed

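In situ Hi-C with the enzyme MboI was carried out by the authors on 2 pools of iWAT from Kunming mice. They processed reads with Juicer, called compartments at 100 kb chromosome by chromosome, taking the gene-dense side as A, and scored each 20-kb bin by its contacts with A less those with B, so genes lie in A more often than not by construction. TADs were called by insulation score on the maps merged over the pools. The deposited A-B index is a score without a unit, positive for A and negative for B, and TADs are deposited as positions. Bin counts per chromosome matched GRCm39, which was read with GENCODE M39. The deposited values carry no read depth and counts of contacts from the study were not used here, so the pools' SD is the only error given.

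From these values, gene indices were the mean over the bins a gene body overlaps. The 3265 bins that were over 50% assembly gap were left out of means and shares over the bins of chromosomes and autosomes. Gene and TAD values used all bins. A feature was in A or in B when both pools had that sign. Work was done in Python 3.11.15 with numpy 2.4.6, pandas 2.3.3, scipy 1.17.1 and matplotlib 3.10.9, and scripts were tested on simulated data. With 1 group of 2 pools, an exact test over samples cannot pass a threshold, so none was run and no p-value is given. Genes were named as the 5 members, the other protein-coding genes of the region, the Iroquois genes of chromosome 13 and, of each list, the highest, the lowest and those in B, at most 4 a list. *Ucp1*, *Crnde* and the markers were named outside this rule, after their values were seen. The rule for the members uses no measured value, but members, lists and alternatives were chosen with earlier results of these data known. The authors' sheep Hi-C and expression files were not used, and gene expression in mouse was not analysed here.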

Additional observations from a re-analysis of the deposited data

How the results depend on the processing

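The limits are that 2 pools give 1 SD with a single degree of freedom, that TADs have no replicate, that the index is relative to its own library and that genes under 20 kb rest on 1 or 2 bins. The mean index of the region was 0.625. It was 2.14 with flanks of 0.5 Mb, 2.19 with none, 1.31 when centred on the median of chromosome 8 and 0.552 in windows of 100 kb. The share of bins in A in both pools was 61.5%. It was 86.3% with flanks of 0.5 Mb, 93.2% with none, 60.9% after quantile normalization, 66.1% when centred and 61.1% in windows of 100 kb. Without either pool it was 63.2%, but there a bin needs a positive index in the remaining pool only, which is a looser rule. The mean over the 5 genes was 2.67, against 3.08 for the start bins, 2.64 for medians, 2.56 with 1 more bin on each side, 3.35 when centred and 0.803 for the start bin minus its surroundings, which was added after seeing the data. The difference between the Iroquois clusters was 2.87, against 3.35 over whole spans. With the index divided by the SD over the chromosome it was 0.839, which is in units of that SD. The correlation with G and C content was 0.33, against 0.444 in windows of 100 kb and 0.751 over chromosome 8. Of 25 alternative values for single genes that used both pools, 15 stayed within 1 SD of the pools, 10 moved further and 0 were below 0. Of those 15, 5 were identical by construction because the gene has 1 or 2 bins. Centring on the median of chromosome 8 raised all 5 genes by the same amount, which was larger than the SD of each. Its values therefore count among the moves and could not fall below 0, whatever the gene. Leaving out a pool always stays within 1 SD when there are 2. The start bin minus its surroundings is a difference between bins and not an index, so it is not comparable with the gene values. It gave -0.10 for *Irx6*. The 5 genes lay in 2 TADs under each alternative. No paired analysis was possible because the mouse libraries form a single group with no second group of samples, and genes and regions were compared within each pool.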

Other observations

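At the right edge of the region lies the carboxylesterase 1 cluster, whose genes encode enzymes that cleave esters and lipids. From *Ces1a* to *Ces1f* each gene was lower than the one before it in both pools. *Ces1a* had 0.156 in pool 1 and 0.0947 in pool 2, *Ces1b* had -0.73 and -1.42, *Ces1c* had -1.25 and -1.59, *Ces1d*, which encodes a lipase of adipocytes, had -2.90 and -2.56, *Ces1e* had -3.27 and -2.67, and *Ces1f* had -4.50 and -4.13. Beyond it *Ces1g* had -4.72 and -3.82, *Ces1h* had -4.57 and -3.82 and *Ces5a* had -3.18 and -2.56, so the order did not go on. A TAD boundary bin overlaps *Ces1c* and lies before *Ces1d*. The TAD that holds *Ces1d* to *Ces1h* had all 18 bins in B in both pools, as did 15.2% of TADs.

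Of 12 TALE homeobox genes outside the Iroquois family, 8 were in A, against 75.1% of all protein-coding genes, and 4 in B, against 22.5%. Those in B included *Meis1* (-2.14), *Pknox2* (-1.14) and *Mkx* (-0.95), and the highest was *Meis3* (8.18). Of 6 listed genes that the literature links to *Irx3* and *Irx5* in thermogenic beige fat, 5 were in A, near the 75.1% of all genes, with the highest value at *Arid5b* (3.85). *Ucp1*, the uncoupling protein, had 1.98 in pool 1 and 1.16 in pool 2, and *Ppargc1a*, a coactivator of mitochondrial biogenesis, had -1.65 and -2.09.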
